A study of Mus musculus with 6 samples.

Results

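The insulin-like growth factor (IGF) system was examined at the RNA level in the knee joint cartilaginous tissue of mice at postnatal day 6. The genes were 10 rows of the deposited table, chosen by name out of 55487 genes. They are the ligand *Igf1*, the receptors *Igf1r* and *Igf2r*, the growth hormone receptor *Ghr*, and the binding proteins *Igfbp2*, *Igfbp3*, *Igfbp4*, *Igfbp5*, *Igfbp6* and *Igfbp7*. All 10 passed the filter on low counts. Poly(A) RNA was sequenced from 3 libraries of *Hbb*-cKO mice, in which the β-globin gene *Hbb* was deleted conditionally in chondrocytes, and from 3 libraries of wild-type (WT) mice of the same age. In the study, *Hbb*-cKO denotes *Hbb* F/F mice carrying *Col2a1*-CreERT2, a tamoxifen-inducible Cre expressed from the *Col2a1* promoter in cartilage cells. The labels call the controls wildtype only. Whether the controls carried Cre or the floxed alleles, or received tamoxifen, and how many mice each library came from, remained unstated in the labels and methods. The study calls its samples for RNA-seq of cartilaginous tissue biologically independent. P-values measure the spread between these libraries.

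IGF1 is produced in many tissues, partly in response to growth hormone acting through GHR, and signals through the tyrosine kinase receptor IGF1R to promote growth and survival, including growth of the long bones at the growth plate. IGF2R, the cation-independent mannose 6-phosphate receptor, takes IGF2 up for degradation. The binding proteins hold IGFs outside the cell and can restrain or prolong their action, and proteases such as PAPP-A release the ligand by cutting them. IGFBP7 binds IGFs only weakly.

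Total counts were 17405688 to 20969914 in the *Hbb*-cKO libraries and 16544800 to 17475496 in the WT libraries. The targeted genes were lower in *Hbb*-cKO without passing the threshold. *Hbb-bs* was at 1606, 2257 and 2006 CPM (counts scaled to a common library size) in *Hbb*-cKO replicates 1, 2 and 3, against 6394, 5016 and 2848 CPM in WT replicates 1, 2 and 3, and *Hbb-bt* was at 2589, 3187 and 3009 CPM in *Hbb*-cKO, against 10417, 7433 and 4064 CPM in WT. The chondrocyte markers were present in every library, with all 12 listed genes detected and *Col2a1*, the main collagen of cartilage, at 11307 to 38294 CPM in *Hbb*-cKO, against 22280 to 29308 CPM in WT. *Hbb*-cKO replicate 1 was the lowest library for each of the 12 genes except *Comp*. Their sum was 18748 CPM in this library, against 35231 to 61191 in the others. The same library was the highest for *Igf1* and the lowest for *Cish*, and the part of its lower cartilage RNA in these values was not tested. Skeletal muscle genes were also abundant, at 26337 to 35772 summed CPM over 11 genes in *Hbb*-cKO and 31412 to 51469 in WT. These sums overlapped, but 9 of the 11 genes had negative log2 fold changes of *Hbb*-cKO over WT, with a median of -0.35. Of the 11, 4 were lower at an unadjusted p under 0.05 in edgeR, beside 10.1% of all genes in both directions, and 0 passed the threshold.

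WT replicate 2 stood apart by gene length, a check chosen after the data were seen. Across 17159 genes, Spearman's correlation between exonic length and the deviation of a library from the mean of the other 5 was -0.380 in WT replicate 2 and between -0.051 and 0.209 in the other libraries. Its 3796 genes under 2000 bases lay at a median of 0.25 above the other libraries on the log2 scale, and its 2589 genes over 8000 bases at a median of -0.23. Among the 10 genes, WT replicate 2 was the lowest library for *Igf1*, *Igf1r*, *Igf2r* and *Igfbp5*, whose exonic lengths are 6006 to 16791 bases, and the highest for *Igfbp4*, *Igfbp6* and *Igfbp7*, whose lengths are 1112 to 4416 bases. Not all genes followed length. The deviation in WT replicate 2 was 0.0045 for *Ghr* (9053 bases), -0.03 for *Igfbp3* (3130 bases) and 0.14 for *Igfbp2* (1847 bases). For each of the 10 genes the log2 fold change without this library is therefore given beside the comparison.

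**Figure D1:**
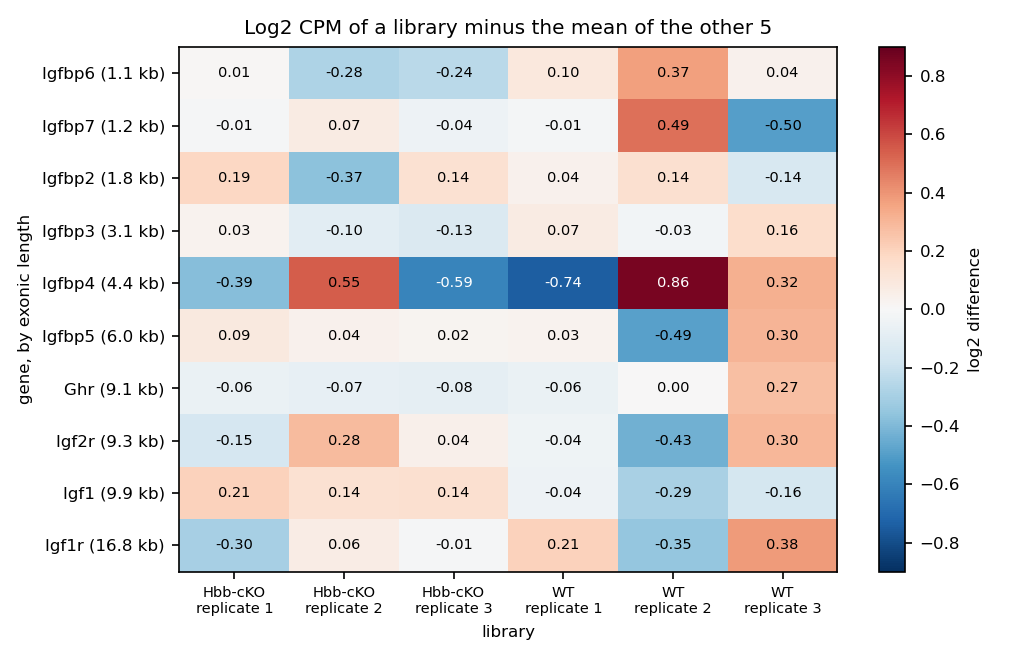
Log2 CPM of each library minus the mean of the other 5 libraries, with the genes ordered from the shortest to the longest exonic length (in kb). The column of WT replicate 2 runs from 0.37 for *Igfbp6* and 0.49 for *Igfbp7* at the top to -0.35 for *Igf1r* at the bottom, with *Igfbp4* at 0.86 and *Ghr* at 0.0045.

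None of the 10 genes changed past the threshold between *Hbb*-cKO and WT cartilage. The count was 0 of 10 in edgeR's quasi-likelihood test at an adjusted p of 0.05, where 0.105% of all 17175 genes tested (18 genes, 6 higher and 12 lower, 0.0349% of all genes being called higher) were called, and it was also 0 in DESeq2. At an unadjusted p under 0.05, edgeR picked out 1 of 10, *Igf1*, beside 10.1% of all genes. The log2 fold changes of *Hbb*-cKO over WT ran from -0.28 to 0.27, with 3 positive and 7 negative, and their median was -0.07, against -0.01 for all genes tested. The 3 *Hbb*-cKO libraries did not overlap the 3 WT libraries for 3 of the 10 genes, *Igf1* (higher), *Igfbp6* and *Ghr* (lower), beside 17.7% of all genes. By direction this was 1 of 10 higher, beside 8.70% of all genes, and 2 of 10 lower, beside 8.96%.

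**Figure D2:**
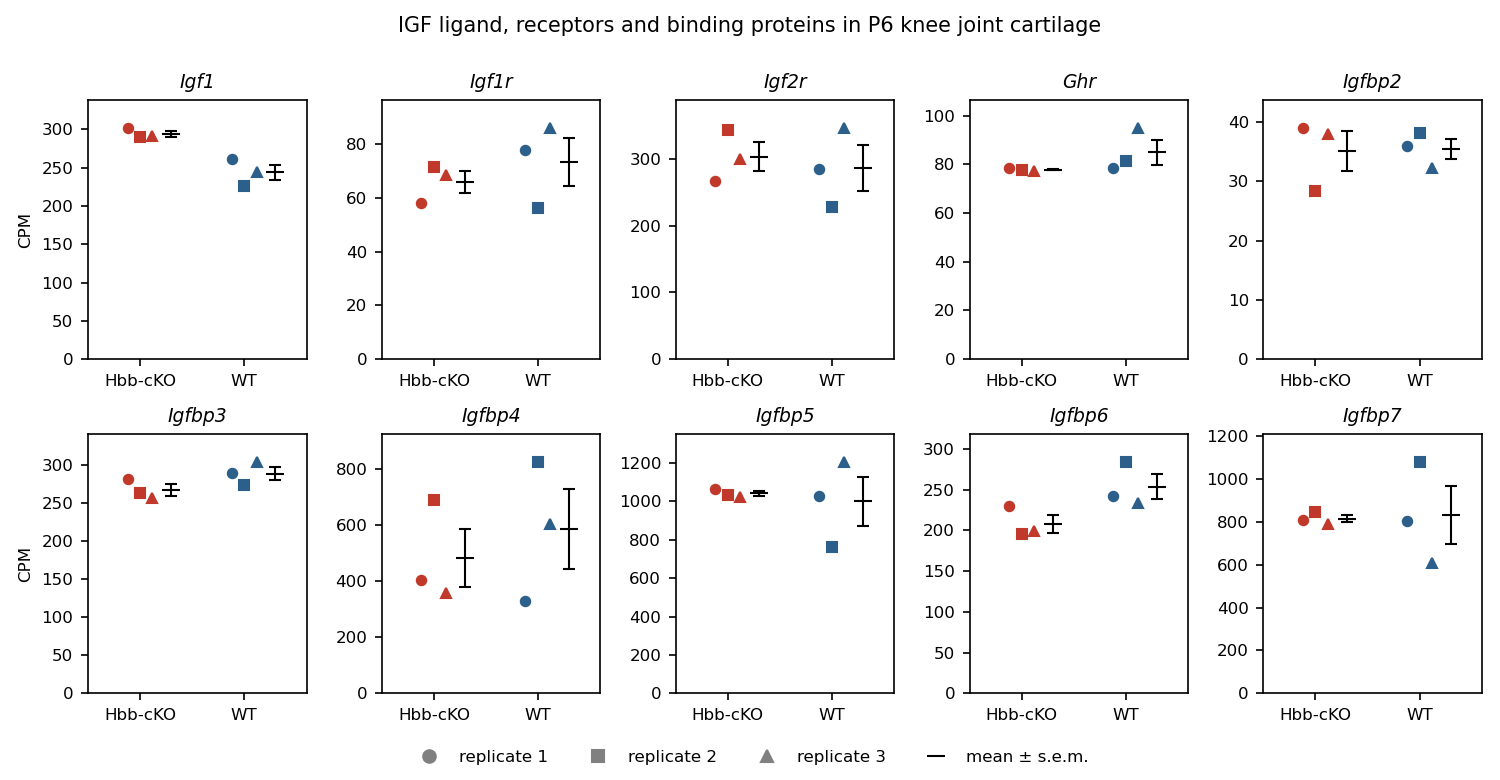
CPM of the ligand, the 3 receptors and the 6 binding proteins in each library, with *Hbb*-cKO on the left and WT on the right of each panel, and bars for the mean ± s.e.m. (n = 3). For *Igf1* the *Hbb*-cKO libraries (289 to 302 CPM) lie above the WT libraries (226 to 261 CPM), whereas most other panels overlap.

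The ligand gene *Igf1* lies on chromosome 10 (87858265 to 87937042, plus strand, GRCm38). It was at 302, 289 and 291 CPM in *Hbb*-cKO replicates 1, 2 and 3, against 261, 226 and 244 CPM in WT replicates 1, 2 and 3. All *Hbb*-cKO libraries were above all WT libraries, and the *Hbb*-cKO libraries lay closer together. The means were 294 ± 3.93 CPM in *Hbb*-cKO, against 244 ± 10.03 CPM in WT (s.e.m., n = 3 each). This is a 1.21-fold difference with a 95% interval of 1.01 to 1.44 (log2 fold change 0.27 ± 0.11, standard error). It did not pass the threshold, with an unadjusted p of 0.0429 and an adjusted p of 0.473 in edgeR. Without WT replicate 2, the lowest library, the log2 fold change was 0.23 (unadjusted p = 0.0563, adjusted p = 0.414, edgeR). *Igf1* was higher in *Hbb*-cKO in all 14 alternative analyses, at 0.23 to 0.33 on the log2 scale, and had an unadjusted p under 0.05 in 7 of them. These analyses reused the same libraries, and leaving out a library could hardly reverse groups that do not overlap, so the kept direction is not independent support.

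The summed markers of some other cell types of the joint also stood higher in *Hbb*-cKO, beside *Igf1*. Summed markers of tendon, ligament and joint surface (8 genes) were at 16354 to 16843 CPM in *Hbb*-cKO, against 12693 to 14287 in WT, and those of osteoblasts (7 genes, mostly *Col1a1*) at 24918 to 38729 against 21618 to 24346. Endothelial markers (9 genes) summed to 865 to 1005 CPM in *Hbb*-cKO, against 669 to 819 in WT, and pericyte and smooth muscle markers (6 genes) to 1133 to 1259 and 982 to 1116. These 4 sums did not overlap between the groups and no single gene in them passed the threshold. Each list was also summed without its gene of the highest CPM, a check added after the data were seen. Without *Col3a1* the other 7 tendon, ligament and joint surface genes overlapped, at 4623 to 5015 CPM in *Hbb*-cKO against 3992 to 5408 in WT, and without *Col1a1* the other 6 osteoblast genes overlapped, at 423 to 1148 against 612 to 1027. *Prg4* (-0.35 on the log2 scale), *Bglap* (-0.44), *Bglap2* (-0.78) and *Ibsp* (-0.14) of these lists had negative values. The endothelial sum without *Pecam1* (675 to 800 CPM in *Hbb*-cKO against 514 to 634 in WT) and the pericyte and smooth muscle sum without *Cspg4* (864 to 890 against 732 to 837) still did not overlap. Erythroid markers (6 genes) were lower, at 8775 to 11736 CPM in *Hbb*-cKO against 13446 to 36833 in WT. The sums overlapped between the groups, over all listed genes, for 12 chondrocyte genes (18748 to 61191 CPM in *Hbb*-cKO, against 35231 to 46230 in WT), 6 hypertrophic chondrocyte genes (1633 to 2277 and 1212 to 2206, or without *Col10a1* 794 to 951 and 636 to 703, which did not overlap), 5 myogenic genes (102 to 126 and 99.7 to 128), 7 macrophage genes (588 to 754 and 529 to 763), 8 neutrophil genes (26.5 to 123 and 17.2 to 37.4) and 6 adipocyte genes (496 to 828 and 369 to 665). For the neutrophil sum, only *Hbb*-cKO replicate 2 (26.5 CPM) lay within the WT range, while *Hbb*-cKO replicates 1 and 3 were at 123 and 103 CPM. Each of the 8 neutrophil genes was higher in *Hbb*-cKO, by 1.01 to 2.84 on the log2 scale (median 1.79). Of them, 7 reached an unadjusted p under 0.05 in edgeR, and none passed the threshold. No listed marker was at 0 in all libraries. The 4 Y-linked genes summed to 57.4 to 146 CPM in *Hbb*-cKO and were at 0 in WT replicates 1 and 2 and at 122 CPM in WT replicate 3, so libraries with and without Y-linked RNA were not evenly spread over the groups. With the level of skeletal muscle genes as a covariate, the log2 fold change of *Igf1* was 0.26 (unadjusted p = 0.0838, edgeR). With the level of Y-linked genes as a covariate it was 0.27 (unadjusted p = 0.0894, edgeR). Beyond these 2 covariates, the part of tissue composition and of sex in the *Igf1* difference was not tested. A different share of cells cannot be told apart from a different amount of RNA per cell.

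The receptor gene *Igf1r* (chromosome 7, 67952827 to 68233668, plus strand), whose product transduces the IGF1 signal, was at 58.0, 71.6 and 68.5 CPM in *Hbb*-cKO replicates 1, 2 and 3, against 77.9, 56.4 and 86.1 CPM in WT. The WT libraries held both the lowest and the highest value. The means were 66.0 ± 4.10 and 73.4 ± 8.86 CPM, and the log2 fold change was -0.15 (95% interval -0.55 to 0.24, adjusted p = 0.825, edgeR). It was -0.30 (unadjusted p = 0.0461, adjusted p = 0.397, edgeR) without WT replicate 2, the lowest library, and -0.02 without WT replicate 3, the highest. *Igf2r* (chromosome 17, 12682406 to 12769664, minus strand), the clearance receptor, was at 267, 343 and 299 CPM in *Hbb*-cKO, against 285, 227 and 346 CPM in WT, with a log2 fold change of 0.08 (-0.33 to 0.49, adjusted p = 0.922, edgeR). Its groups overlapped, and its direction turned to -0.04 without WT replicate 2. *Airn*, a non-coding RNA transcribed antisense through *Igf2r*, had 290 to 506 counts, shared no exonic base with it, and cannot be separated from it in introns because the labels do not state whether strand was used in counting.

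*Ghr* (chromosome 15, 3317760 to 3583492, minus strand), the receptor through which growth hormone acts, was at 78.4, 77.8 and 77.3 CPM in *Hbb*-cKO, against 78.4, 81.4 and 94.96 CPM in WT. Its groups counted as not overlapping only because the highest *Hbb*-cKO library (78.37 CPM) lay just below the lowest WT library (78.39 CPM). The log2 fold change was -0.13 (95% interval -0.38 to 0.13, adjusted p = 0.765, edgeR), and it was -0.14 without WT replicate 2 and -0.04 without WT replicate 3. The ratio of *Igf2r* to *Igf1r*, each per kb of exonic length, was 8.30, 8.65 and 7.88 in *Hbb*-cKO, against 6.60, 7.28 and 7.25 in WT. These libraries did not overlap. The ratio was chosen after its values were seen and was not tested.

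The binding proteins showed no difference past the threshold either. Summed over *Igfbp2* to *Igfbp7*, the level was 2848 ± 113 CPM in *Hbb*-cKO, against 2991 ± 153 CPM in WT (s.e.m., n = 3 each), with overlapping libraries. *Igfbp6* (chromosome 15, 102144362 to 102149511, plus strand), whose product prefers IGF2, was at 230, 195 and 199 CPM in *Hbb*-cKO replicates 1, 2 and 3, against 242, 284 and 234 CPM in WT. Every *Hbb*-cKO library was below every WT library, although *Hbb*-cKO replicate 1 was near the lower WT values. The log2 fold change of -0.28 ± 0.13 (standard error, 95% interval -0.58 to 0.02) had an unadjusted p of 0.0618 and an adjusted p of 0.524 in edgeR. It was -0.18 (unadjusted p = 0.160, edgeR) without WT replicate 2, the highest library, and negative in all 14 alternatives. With the skeletal muscle covariate it was -0.28, and with the Y-linked covariate -0.17. The marker sums given beside *Igf1* differ between the same libraries, and beyond these covariates their part in the *Igfbp6* values was not tested.

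*Igfbp4* (chromosome 11, 99041244 to 99054392, plus strand) varied most among libraries. Its product, a binding protein cut by PAPP-A, inhibits IGF action. It was at 402, 690 and 357 CPM in *Hbb*-cKO replicates 1, 2 and 3, against 328, 824 and 604 CPM in WT. The highest library was 2.51-fold above the lowest, both in WT, and each group held high and low libraries. The log2 fold change was -0.28 with an interval of -1.18 to 0.62 (adjusted p = 0.866, edgeR), and it turned to 0.07 without WT replicate 2. *Igfbp3* (chromosome 11, 7206086 to 7213923, minus strand), which encodes the main IGF carrier in blood, was the steadiest, with 1.18-fold between the extreme libraries. It was at 282, 263 and 257 CPM in *Hbb*-cKO, against 289, 273 and 304 CPM in WT (log2 fold change -0.11, interval -0.37 to 0.15, adjusted p = 0.802, edgeR), with a log2 fold change of -0.13 without WT replicate 2.

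*Igfbp5* (chromosome 1, 72857932 to 72874884, minus strand), which encodes a binding protein abundant in bone and cartilage matrix, was at 1064, 1033 and 1024 CPM in *Hbb*-cKO, against 1029, 764 and 1204 CPM in WT. The *Hbb*-cKO libraries lay within the range of WT, and the log2 fold change was 0.06 (adjusted p = 0.949, edgeR), or -0.09 without WT replicate 2. *Igfbp7* (chromosome 5, 77349240 to 77408041, minus strand) was at 806, 846 and 790 CPM in *Hbb*-cKO, against 804, 1077 and 608 CPM in WT, with a log2 fold change of -0.03 (adjusted p = 0.981, edgeR) that turned to 0.22 without WT replicate 2. The coding gene *Polr2b* shares 85 exonic bases with *Igfbp7* on the opposite strand. *Igfbp2* (chromosome 1, 72824503 to 72852474, plus strand) was at 39.0, 28.3 and 37.9 CPM in *Hbb*-cKO, against 35.9, 38.1 and 32.2 CPM in WT (log2 fold change -0.01, adjusted p = 0.989, edgeR). Its direction is not determined by these data, being 0.05 without WT replicate 2.

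Per transcript length, measured as CPM per kb of exonic length, the genes spanned more than 2 orders of magnitude. In both genotypes the order was *Igfbp7*, *Igfbp6*, *Igfbp5*, *Igfbp4*, *Igfbp3*, *Igf2r*, *Igf1*, *Igfbp2*, *Ghr* and *Igf1r*. *Igfbp7* stood at 673 ± 13.9 CPM per kb in *Hbb*-cKO and 686 ± 113 in WT, *Igf1* at 29.7 ± 0.397 and 24.6 ± 1.01, and *Igf1r* at 3.93 ± 0.244 and 4.37 ± 0.527 (s.e.m., n = 3 each). Libraries of *Igfbp4* overlapped those of *Igfbp3*, and libraries of *Igf2r* those of *Igf1*, in both genotypes. *Igfbp6* and *Igfbp5* overlapped in *Hbb*-cKO only, and *Igfbp5* and *Igfbp4* in WT only, which describes these libraries and is not a test between genotypes. With the longest transcript in place of all exons, *Igf1* and *Igf2r* changed places in WT, at 34.6 and 32.2 CPM per kb, and the other 8 kept theirs. *Igfbp7* took 54.0 ± 0.555% of the summed level of the 6 binding proteins per kb in *Hbb*-cKO and 51.2 ± 4.13% in WT. *Igfbp6* followed with 15.03 ± 0.880% and 17.3 ± 0.533%, and *Igfbp5* with 13.9 ± 0.357% and 13.0 ± 2.65%.

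**Figure D3:**
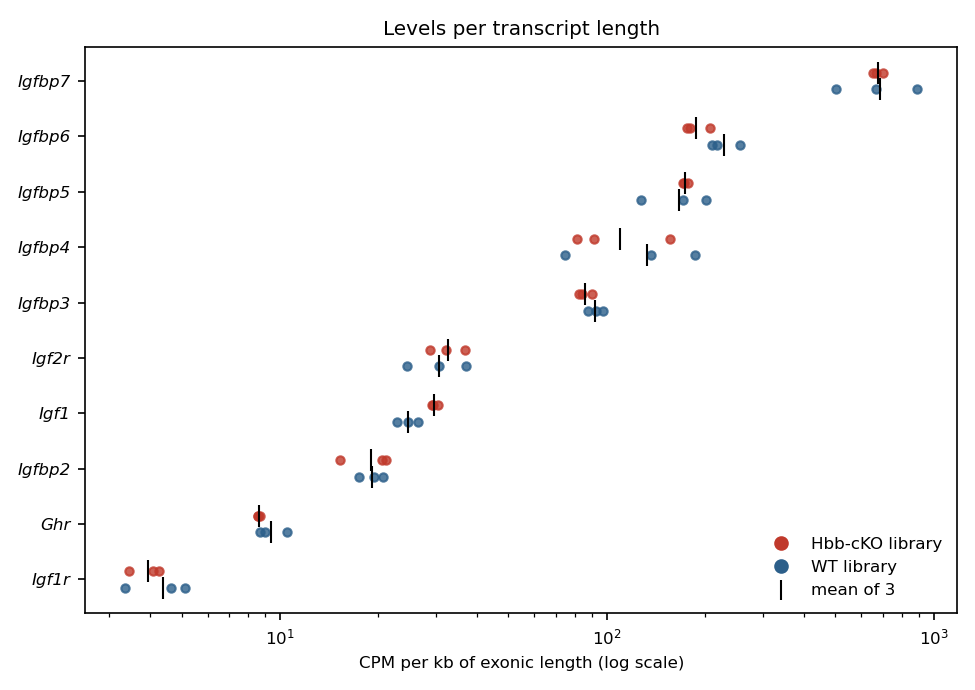
CPM per kb of exonic length on a log axis for each library, with *Hbb*-cKO above WT for every gene and a vertical tick at the mean of 3 libraries. The genes run from *Igfbp7* at a mean of 673 in *Hbb*-cKO and 686 in WT to *Igf1r* at 3.93 and 4.37.

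Among the binding protein genes, *Igfbp2*, *Igfbp5* and *Igfbp3* each have another one as a close neighbour. *Igfbp2* and *Igfbp5* face each other on chromosome 1, with 5457 bases between their ends, and *Igfbp1* and *Igfbp3* do so on chromosome 11, with 3539 bases between them. *Igfbp3* had 4493 to 5448 counts in every library, whereas *Igfbp1*, which encodes a binding protein made mainly by the liver, had 1 count in WT replicate 1 and 0 in the other 5 libraries, where 3 counts, the limit that a count of 0 allows, correspond to 0.142 to 0.182 CPM. To show how these neighbours differ in sequence, the 250 bases before the transcription start of each are given from RefSeq (GRCm38.p6), 5′ to 3′ on the strand of the gene. Capitals mark the TATA box TATAAA, its variants spelled TATATA or else TTTAAA, and the GC box GGGCGG, each searched on both strands. The TATA-like words can share bases with each other.
Igfbp1 (chr11:7197537-7197786, plus strand): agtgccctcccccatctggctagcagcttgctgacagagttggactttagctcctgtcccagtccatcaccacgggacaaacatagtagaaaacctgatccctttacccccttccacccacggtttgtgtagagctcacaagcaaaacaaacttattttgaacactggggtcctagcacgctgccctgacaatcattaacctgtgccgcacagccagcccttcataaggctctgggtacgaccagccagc
Igfbp3 (chr11:7213924-7214173, minus strand): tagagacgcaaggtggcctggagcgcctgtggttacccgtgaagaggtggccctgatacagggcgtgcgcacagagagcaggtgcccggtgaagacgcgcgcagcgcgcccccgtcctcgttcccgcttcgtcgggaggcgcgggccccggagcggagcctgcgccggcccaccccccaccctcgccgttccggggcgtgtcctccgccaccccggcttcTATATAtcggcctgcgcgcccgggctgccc
Igfbp2 (chr1:72824230-72824479, plus strand): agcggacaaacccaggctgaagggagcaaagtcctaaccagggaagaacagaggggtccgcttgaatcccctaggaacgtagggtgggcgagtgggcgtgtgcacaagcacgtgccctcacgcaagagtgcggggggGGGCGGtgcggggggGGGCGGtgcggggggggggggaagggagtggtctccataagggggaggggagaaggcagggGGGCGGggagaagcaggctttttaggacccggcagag
Igfbp5 (chr1:72874866-72875115, minus strand): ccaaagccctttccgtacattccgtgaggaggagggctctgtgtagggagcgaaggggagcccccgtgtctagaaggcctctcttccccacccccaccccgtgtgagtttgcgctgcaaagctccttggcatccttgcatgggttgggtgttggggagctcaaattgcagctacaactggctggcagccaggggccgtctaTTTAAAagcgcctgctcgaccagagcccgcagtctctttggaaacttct

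In these windows *Igfbp3* has TATATA 30 bases before the start and 32 CG dinucleotides, and *Igfbp5* has TTTAAA 49 bases before the start and 10 CG. *Igfbp2* holds 3 copies of GGGCGG and 14 CG, and *Igfbp1* none of the searched motifs and 5 CG. Of 32851 promoters of the same length, 5.25% hold TATATA, 12.1% TTTAAA, 12.4% TATAAA and 32.7% GGGCGG, and the median number of CG is 6. These matches describe the sequence and were not related to the levels by a test.

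The wider pathway was read from 58 further genes in 6 lists, of which 53 were tested. None passed the threshold in edgeR. At an unadjusted p under 0.05 there were 2 of 53, *Adam12* and *Grb14*, both higher in *Hbb*-cKO, beside 10.1% of all genes. Without WT replicate 2, edgeR also gave an unadjusted p under 0.05 for *Insr* (-0.39 on the log2 scale), *Pappa* (-0.81), *Htra1* (0.43), *Irs2* (-0.60) and *Igf2bp2* (-0.71) among the named genes, with adjusted p of 0.306 to 0.376. Over all genes, 2190 of the 17603 then tested had an unadjusted p under 0.05. The named genes were picked partly for small p in these same data, so their number cannot be set against that share. The median log2 fold change over the 53 genes, with all libraries, was -0.01, as over all genes. The libraries of the 2 groups did not overlap for 2 of 53 genes higher in *Hbb*-cKO (*Adam12* and *Grb14*), beside 8.70% of all genes. The same held for 2 of 53 lower (*Cish* and *Foxo3*), beside 8.96%. By list, the number of genes at an unadjusted p under 0.05 in edgeR was 0 of 3 for other ligands, binding proteins and the insulin receptor, 0 of 10 for growth hormone signalling, 1 of 8 for proteases of the binding proteins and their inhibitors, 1 of 8 for receptor adaptors, 0 of 21 for PI3K, AKT, mTOR and FOXO, and 0 of 3 for the IGF2 mRNA binding proteins.

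*Igf2*, which encodes a growth factor known for its role in fetal growth, was at 3688, 3970 and 3798 CPM in *Hbb*-cKO replicates 1, 2 and 3, against 737, 5003 and 4196 CPM in WT. WT replicate 1 lay far below the next lowest library. Its log2 fold change was 0.21 (interval -1.30 to 1.71, adjusted p = 0.949, edgeR), and without WT replicate 1 it was -0.26. Per kb, *Igf2* exceeded *Igf1* by 21.2, 23.7 and 22.6 times in *Hbb*-cKO, against 4.89, 38.3 and 29.7 times in WT.

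*Insr*, the insulin receptor, which pairs with IGF1R in hybrid receptors, was at 47.5, 57.4 and 54.2 CPM in *Hbb*-cKO, against 60.4, 5.53 and 80.4 CPM in WT. WT replicate 2 had 91 counts and lay 8.58-fold below the next lowest library. With all libraries, the log2 fold change was 0.12 (adjusted p = 0.980, edgeR) and turned to -0.39 (unadjusted p = 0.0336, adjusted p = 0.376, edgeR) without it. The ratio of *Igf1r* to *Insr* per kb was 1.00, 1.02 and 1.03 in *Hbb*-cKO, against 1.05, 8.34 and 0.877 in WT, so that 5 of 6 libraries held both receptors at about the same level. *Gh* and *Ins2* had at most 2 counts and *Igfals*, which encodes the liver subunit of the circulating IGF complex, 19 to 121.

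**Figure D4:**
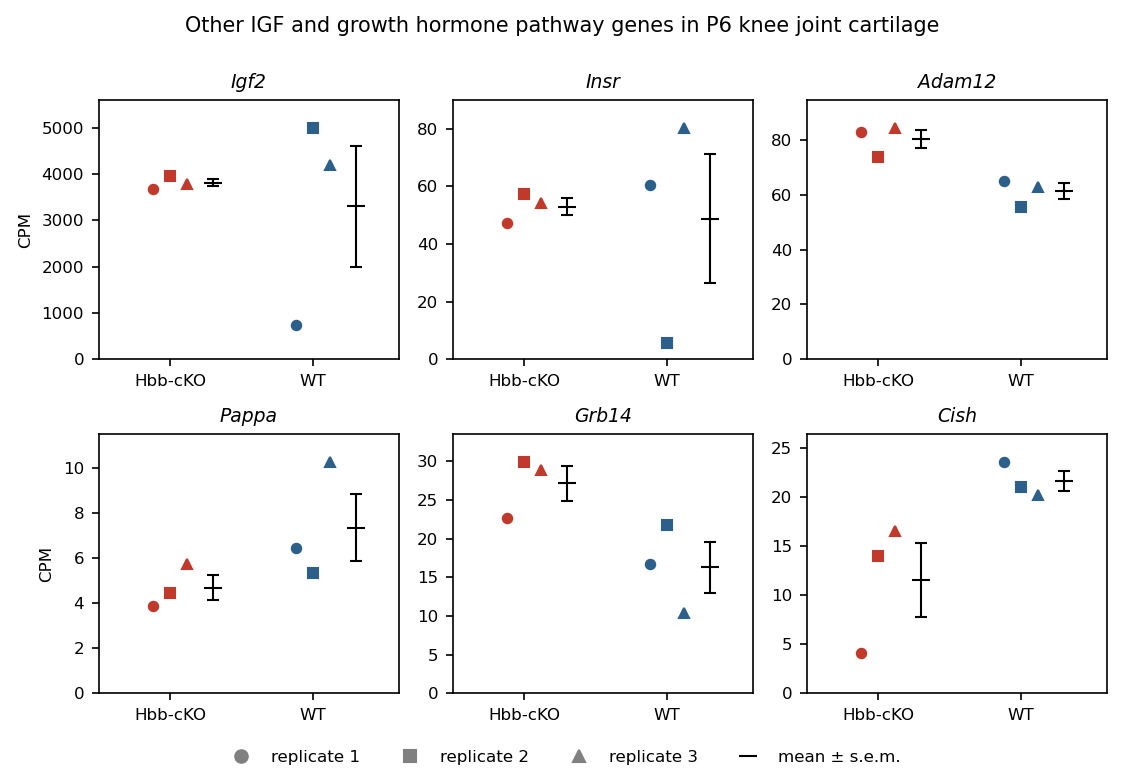
CPM of 6 other genes of the pathway in each library, with *Hbb*-cKO on the left and WT on the right of each panel, and bars for the mean ± s.e.m. (n = 3). WT replicate 1 stands alone at 737 CPM for *Igf2* and WT replicate 2 at 5.53 CPM for *Insr*, whereas for *Adam12* the *Hbb*-cKO libraries (73.6 to 84.4 CPM) lie above those of WT (55.6 to 65.1 CPM).

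*Adam12* encodes a metalloprotease whose human form cuts IGFBP3 and IGFBP5. It was at 82.9, 73.6 and 84.4 CPM in *Hbb*-cKO replicates 1, 2 and 3, against 65.1, 55.6 and 62.9 CPM in WT. All *Hbb*-cKO libraries were higher. The log2 fold change was 0.39 ± 0.11 (standard error, unadjusted p = 0.00913, adjusted p = 0.303, edgeR), and it stayed at 0.34 to 0.45 in all 14 alternatives, each with an unadjusted p under 0.05. *Pappa*, the protease that cuts IGFBP4, was at 3.86, 4.46 and 5.76 CPM in *Hbb*-cKO, against 6.47, 5.35 and 10.3 CPM in WT. Its groups overlapped at their edges, with a log2 fold change of -0.65 (adjusted p = 0.495, edgeR). Over the 14 alternatives it ran from -1.04, with the Y-linked covariate, to -0.33, without WT replicate 3, and the unadjusted p was under 0.05 in 6 of them. *Htra1*, the protease with the highest CPM on the list, averaged 338 ± 10.5 CPM in *Hbb*-cKO, against 295 ± 44.2 CPM in WT (s.e.m., n = 3 each, log2 fold change 0.20, adjusted p = 0.786, edgeR).

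Among the adaptors, *Grb14* encodes an inhibitor of the insulin receptor. It was at 22.7, 29.9 and 28.9 CPM in *Hbb*-cKO, against 16.7, 21.8 and 10.4 CPM in WT. The lowest *Hbb*-cKO library was just above the highest WT library, and the log2 fold change was 0.74 ± 0.26 (standard error, unadjusted p = 0.0223, adjusted p = 0.387, edgeR). Over the 14 alternatives the log2 fold change of *Grb14* ran from 0.45 to 1.28, with an unadjusted p under 0.05 in 10 of them. The lowest value, 0.45 (unadjusted p = 0.0838, edgeR), came with the level of skeletal muscle genes as a covariate. *Grb10*, a related adaptor with the highest CPM of the list, averaged 616 ± 38.8 CPM in *Hbb*-cKO, against 616 ± 69.5 CPM in WT (s.e.m., n = 3 each). *Irs2*, a docking protein of both receptors, differed by -0.43 on the log2 scale (adjusted p = 0.570, edgeR), and *Shc1*, which links receptors to RAS, by 0.08 (adjusted p = 0.873, edgeR).

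Of growth hormone signalling, *Cish*, a STAT5 target that restrains the receptor, was at 4.09, 13.9 and 16.52 CPM in *Hbb*-cKO, against 23.5, 21.04 and 20.1 CPM in WT. All *Hbb*-cKO libraries were lower, and *Hbb*-cKO replicate 1 was by far the lowest. The log2 fold change was -0.90 ± 0.45 (standard error, unadjusted p = 0.0890, adjusted p = 0.561, edgeR), and without *Hbb*-cKO replicate 1 it was -0.50 (unadjusted p = 0.0181, adjusted p = 0.545, edgeR). *Stat5b*, the transcription factor of the pathway, was at a log2 fold change of -0.13 (adjusted p = 0.866, edgeR), *Sh2b2*, an adaptor of JAK2, one of -0.42 (adjusted p = 0.611) and *Ptpn1*, a phosphatase, one of 0.06 (adjusted p = 0.918).

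Further downstream, the kinase gene *Akt1* averaged 333 ± 15.2 CPM in *Hbb*-cKO, against 367 ± 28.2 CPM in WT (s.e.m., n = 3 each), with a log2 fold change of -0.14 (adjusted p = 0.799, edgeR). *Foxo3*, a transcription factor restrained by AKT, was at a log2 fold change of -0.26 (adjusted p = 0.664) and *Eif4ebp1*, a translation repressor controlled by mTOR, one of -0.22 (adjusted p = 0.693, edgeR for both). The IGF2 mRNA binding proteins were at log2 fold changes of -0.28 for *Igf2bp1*, -0.52 for *Igf2bp2* and 0.39 for *Igf2bp3*, with adjusted p of 0.803, 0.557 and 0.845 in edgeR.

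**Figure D5:**
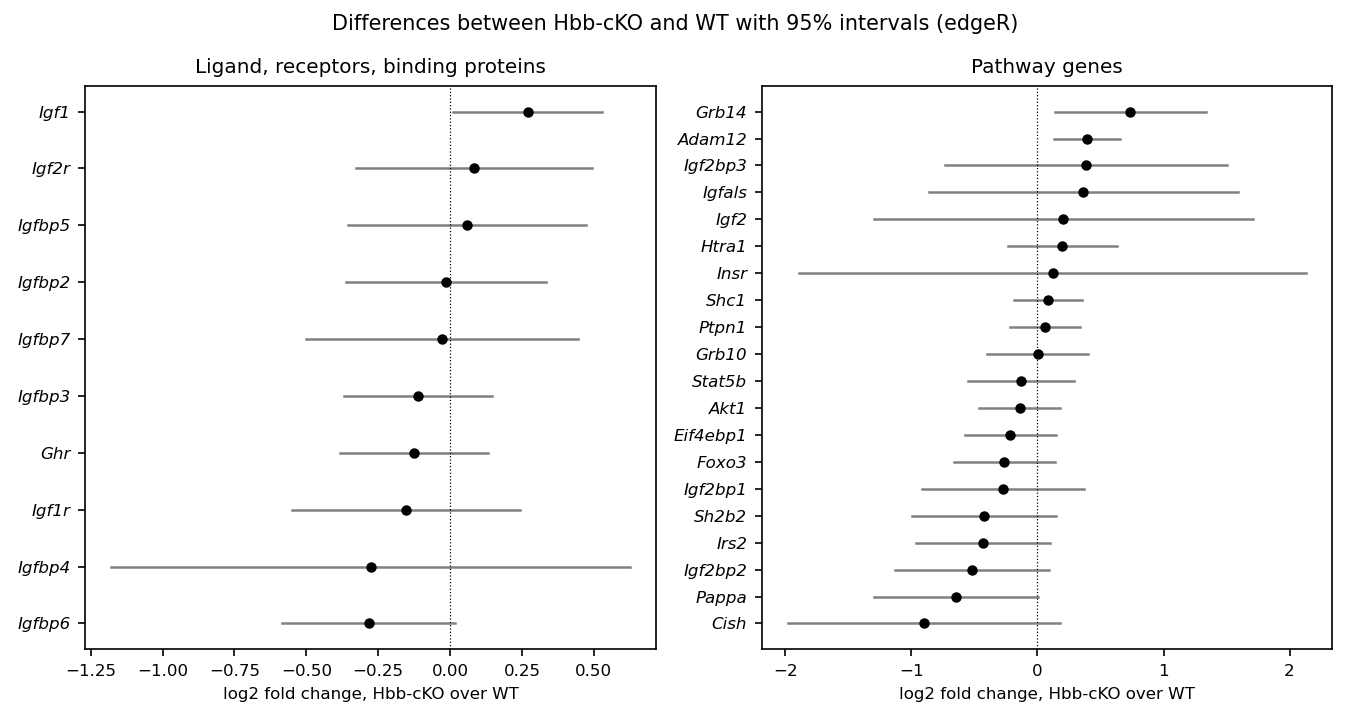
Log2 fold change of *Hbb*-cKO over WT (points) with 95% intervals (lines) from edgeR for the 10 genes (left) and the pathway genes described (right). The interval of *Igf1* (0.01 to 0.53) lies above 0 on the left, and those of *Grb14* (0.14 to 1.34) and *Adam12* (0.13 to 0.66) on the right, none of them past the threshold after adjustment over all genes.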

How the data were processed

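The authors deposited 1 table of whole-number counts per gene, without normalization. Their processing notes list HISAT2 2.1.0 for alignment, fastp 0.19.5, CASAVA 1.8, edgeR and StringTie. The settings, build and strand used by the authors remained unstated. Positions of genes matched GENCODE M21 (GRCm38) for 99.4% of identifiers found there, which gave exonic lengths. Libraries were grouped by the labelled genotype. CPM used TMM-normalized library sizes. Of 55487 genes, 17175 passed edgeR's filter (minimum count 10, minimum total 15, by group) and entered a quasi-likelihood fit with robust dispersions (edgeR 4.0.16, limma 3.58.1, R 4.3.3), with Benjamini-Hochberg adjustment over all genes, threshold 0.05 and 95% intervals that measure the spread between libraries. Alternatives were DESeq2 1.42.0, other scalings and filters, a replicate block, muscle and Y-linked covariates and leaving out each library. Named genes were the 10 genes, *Igf2*, *Igfbp1*, *Igfals*, *Insr* and, per pathway list, the 2 with the smallest p and the 2 with the highest CPM, of which 1 is not reported here. Genes and lists were chosen with earlier results of these data known. The ratios between genes, the promoter windows and their motifs were chosen after the data were seen. Fold changes or p-values of the authors were not used. Limits from counts of 0 cover counting error only.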

Additional observations from a re-analysis of the deposited data

How the results depend on the processing

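None of the 10 genes and none of the other pathway genes passed the threshold in any of the 14 alternatives. Over all genes, 18 passed in edgeR, 249 in DESeq2, 60 with no filter on low counts and 52 with a Y-linked covariate, and 1 (without WT replicate 1) to 39 (without WT replicate 3) when a library was left out. The cause of these differences was not tested. Same-numbered libraries did not deviate together (r = -0.026, -0.108 and -0.029), so the numbers were not read as pairs. With a replicate block, 4 genes passed over all genes, *Igfbp7* was at 0.011 and *Igf1* at 0.27 (unadjusted p = 0.0995, edgeR). DESeq2 picked out 1 of the 10 genes at an unadjusted p under 0.05, beside 1631 of all 17175 genes.

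*Igf1*, *Igf1r*, *Igfbp3*, *Igfbp6* and *Ghr* kept their direction in all 14 alternatives. The alternatives reused the same libraries, so a kept direction is not independent support. This holds most for *Igf1*, *Igfbp6*, *Ghr* and the pathway gene *Adam12*, whose groups did not overlap. With the Y-linked covariate the log2 fold change reversed for *Igf2r* (-0.18), *Igfbp2* (0.14), *Igfbp5* (-0.17), *Igfbp7* (0.36), *Igf2* (-0.093), *Insr* (-0.50), *Grb10* (-0.24) and *Akt1* (0.030). With the skeletal muscle covariate it reversed for *Igfals* (-0.24) and *Stat5b* (0.027). *Igfbp2* was at 8.8e-05 with no filter on low counts and *Grb10* at -0.0049 with a filter of 50 counts in 3 libraries. Leaving out each library in turn, the range crossed 0 for *Igf2r* (-0.042 to 0.24), *Igfbp2* (-0.090 to 0.12), *Igfbp4* (-0.62 to 0.072), *Igfbp5* (-0.087 to 0.22), *Igfbp7* (-0.21 to 0.22), *Igf2* (-0.26 to 0.65), *Igfals* (-0.045 to 0.71), *Insr* (-0.39 to 0.69), *Stat5b* (-0.28 to 0.080), *Ptpn1* (-0.020 to 0.12) and *Grb10* (-0.12 to 0.15). All of these had intervals that included 0 in the original fit. With 3 libraries a group, an interval as wide as that of *Igfbp4* (-1.18 to 0.62) includes differences of either direction within those limits.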

Other observations

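Some genes were very low in 1 library alone, a pattern looked for after the values of *Igf2* and *Insr* were seen. Among 10654 genes with a mean of at least 10 CPM, 21 were at least 4-fold below the next lowest library in WT replicate 2, where *Insr* is one of them, and 9 in WT replicate 1, where *Igf2* is one. The other libraries had 8, 4 and 4 such genes in *Hbb*-cKO replicates 1, 2 and 3 and 3 in WT replicate 3. None of the 10 genes was among them.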
